A study of Mus musculus with 4 samples.

Results

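The 8 genes described here encode cell surface molecules by which leukocytes attach to vascular endothelium, Icam1, Icam2, Vcam1, Sele, Selp, Alcam, Cd34 and Mcam, of 21951 protein-coding genes annotated in mm10. They were taken as a list by name and not from any measured value. The measurement was chromatin immunoprecipitation sequencing of RNA polymerase II (Pol II), the enzyme that transcribes protein-coding genes, in endothelial cells (ECs) sorted from mouse brain. Each library is represented by the peaks called in it, stretches of the genome where precipitated fragments pile up above the surrounding level. For each gene, peaks were counted within 1500 bp of any of its transcription start sites (TSS; called promoter peaks below), within the gene body, and within 50 kb of the gene. Peak height is given as pileup, the number of fragments stacked at the summit, per 1000000 fragments of the library (FPM). Where 4 values stand together, they follow the order old WT Cre 1, old WT Cre 2, young EC-K4KO 1, young EC-K4KO 2.

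There were 4 libraries. The 2 old WT Cre libraries came from mice of 20 to 23 months that carry Cre under the Cdh5 (VE-cadherin) promoter, labelled CdH5CRE. The 2 young EC-K4KO libraries came from mice of 4 to 6 months, labelled ECK4KO, in which the same Cdh5-CreERT2 deletes a floxed Klf4 in ECs. Controls carried Cre as well, both groups received tamoxifen at an age of 8 weeks on a C57BL/6J background, and each library was made from 200000 sorted cells. Genotype and age changed together, so they cannot be told apart in any difference below. The labels do not say whether replicates came from separate animals, and p-values then measure only the spread between these libraries, which may be technical.

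Depth and yield differed widely between libraries. The libraries held 65734178, 27455452, 35227929 and 22705175 fragments, and 78851, 39674, 35638 and 235591 peaks were called from them. Young EC-K4KO replicate 2 thus had the fewest fragments and by far the most peaks. The tallest single peak took up 14.6%, 15.3%, 3.36% and 1.73% of all fragments, which lowers the FPM elsewhere in the old libraries. Among 10 endothelial marker genes, 4, 3, 1 and 7 had a promoter peak, against 25.6%, 24.5%, 10.6% and 67.5% of all protein-coding genes. Cdh5, Kdr and Flt1 had one in both old libraries and in young EC-K4KO replicate 2. Ly6a had one in both young libraries and neither old one, as did 3.12% of all genes. Pecam1, Tek and Slco1a4 had none in any library. At Klf4 a promoter peak was called in both young EC-K4KO libraries (0.426 and 0.881 FPM) and neither old one, as at 3.12% of all genes. Such a peak measures neither the transcript nor the deleted segment, so it checks no genotype label.

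Leukocytes leave the blood in steps. Selectins on the vessel wall (Sele, E-selectin, and Selp, P-selectin) catch flowing cells and let them roll, and immunoglobulin family molecules (Icam1, Icam2 and Vcam1) then bind leukocyte integrins and hold the cells firmly. Alcam, which binds CD6 on T cells, and Mcam (CD146), which also sits at endothelial junctions, take part in crossing of the vessel wall. Cd34 is a sialomucin of endothelium and blood progenitors. Brain vessels normally hold few of the inducible molecules on their surface, and inflammatory cytokines raise Sele, Vcam1 and Icam1 through NF-kB.

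In mm10, with GENCODE M21 annotation, the selectin genes Sele (chr1:164048234-164057677) and Selp (chr1:164115264-164150026) are neighbours on the plus strand, and Cd34 (chr1:194938819-194961279, plus strand) lies on the same chromosome. Icam1 (chr9:21015985-21028817) and Mcam (chr9:44134469-44142727) are on the plus strand of chromosome 9. Icam2 (chr11:106377656-106388075), Vcam1 (chr3:116109949-116129688) and Alcam (chr16:52248996-52454074) are on the minus strand of theirs.

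The DNA at which Pol II would assemble differed in base composition between these genes, and 4 stretches are shown for the genes whose promoter peaks are contrasted below, with no relation between sequence and peaks tested. Sele is the inducible selectin with no promoter peak in any library, Icam1 the inducible integrin ligand whose only promoter peak lay in young EC-K4KO replicate 2, and Cd34 and Mcam had promoter peaks in libraries of both groups. For Icam1 (chr9:21015690-21015939, plus strand), Sele (chr1:164047984-164048233, plus strand) and Cd34 (chr1:194938571-194938820, plus strand), the 250 bases upstream of the RefSeq TSS in GRCm38.p6 are given. For Mcam the stretch is the 155 bases shared by the promoter peaks of 3 libraries (chr9:44134239-44134393, plus strand, mm10). The summits of these peaks lie outside it. Capitals mark matches to NF-kB in Icam1, and to NF-kB and then TATAAA in Sele.
Icam1: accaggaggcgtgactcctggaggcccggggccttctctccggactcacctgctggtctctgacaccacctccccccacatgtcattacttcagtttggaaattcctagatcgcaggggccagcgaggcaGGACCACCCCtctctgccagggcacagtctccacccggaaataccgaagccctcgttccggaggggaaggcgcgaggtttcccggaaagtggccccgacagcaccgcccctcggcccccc
Sele: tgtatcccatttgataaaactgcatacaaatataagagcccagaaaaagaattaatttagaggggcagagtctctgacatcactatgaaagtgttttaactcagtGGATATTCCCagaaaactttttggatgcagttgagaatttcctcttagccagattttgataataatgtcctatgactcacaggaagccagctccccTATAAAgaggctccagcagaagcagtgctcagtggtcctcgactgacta
Cd34: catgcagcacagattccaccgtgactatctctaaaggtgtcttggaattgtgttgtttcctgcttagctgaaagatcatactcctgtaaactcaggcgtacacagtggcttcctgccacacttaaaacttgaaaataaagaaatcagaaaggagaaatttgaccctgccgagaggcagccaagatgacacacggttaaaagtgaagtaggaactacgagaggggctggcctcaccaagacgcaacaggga
Mcam: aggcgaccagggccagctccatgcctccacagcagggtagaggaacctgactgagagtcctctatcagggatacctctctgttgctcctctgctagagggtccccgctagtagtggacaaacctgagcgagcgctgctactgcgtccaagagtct

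Positions of matches are counted from the RefSeq TSS, with upstream bases negative. NF-kB stands for the pattern GGRNNNYYCC, with R for A or G, Y for C or T and N for any base. The Icam1 stretch matched NF-kB at -120 to -111, and the Sele stretch matched NF-kB at -145 to -136 and TATAAA at -49 to -44. Binding at these matches was not tested, and sites that depart from the pattern stay unmarked. None of the motifs searched (TATAAA on the coding strand, and NF-kB, CCGGAAG and CCCACCC on both strands) was found in the Cd34 and Mcam stretches shown. The Mcam stretch lies upstream of the RefSeq window of Mcam, so it is not set against the other stretches. Past the RefSeq TSS, within the RefSeq windows, TATAAA was found at 13 to 18 of Icam1, CCCACCC at 18 to 24 of Cd34 and NF-kB at 34 to 43 of Mcam. The RefSeq TSS of Icam1 lies 45 bp upstream of its GENCODE TSS, from which peak distances are counted. Its TATAAA thus lies upstream of the GENCODE TSS. Among 32851 RefSeq promoters of 250 bases before to 50 bases after the TSS, 8.32% held TATAAA, 26.8% NF-kB, 8.86% CCGGAAG and 17.5% CCCACCC, so an NF-kB match is common. The observed to expected CpG ratio over those windows was 0.231 for Sele and 0.202 for Selp, below the median of 0.384 over all promoters. It was 0.374 for Cd34 and higher for Icam1 (0.623), Alcam (0.688) and Mcam (0.733). RefSeq entries were matched for 6 of the 8 genes, all but Icam2 and Vcam1.

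Promoter peaks at the adhesion genes were few outside 1 library. In old WT Cre replicate 1, 3 of the 8 genes had one (Alcam, Cd34 and Mcam), against 25.6% of all protein-coding genes. In old WT Cre replicate 2 it was Mcam alone, against 24.5% of all genes. Young EC-K4KO replicate 1 had none at any of the 8, against 10.6%. Young EC-K4KO replicate 2 had 6, at Icam1, Icam2, Selp, Alcam, Cd34 and Mcam, against 67.5%. The count therefore followed the general yield of each library, with a range of 0 to 6 within the young EC-K4KO group that covered both old values. No adhesion gene had a promoter peak in all libraries (2.22% of all genes did), and only Mcam had one in at least 3 (13.1%). Mcam was also the 1 gene with it in both old WT Cre libraries (10.1% of all genes), and 0 had it in both young EC-K4KO libraries (9.14%). None had a promoter peak in both old WT Cre libraries and neither young one (0.784% of all genes) or in both young EC-K4KO libraries and neither old one (3.12%). Icam1, Icam2 and Selp had it in young EC-K4KO replicate 2 alone, as did 30.5% of all genes, and Vcam1 and Sele had none anywhere, as did 25.4%.

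**Figure D1:**
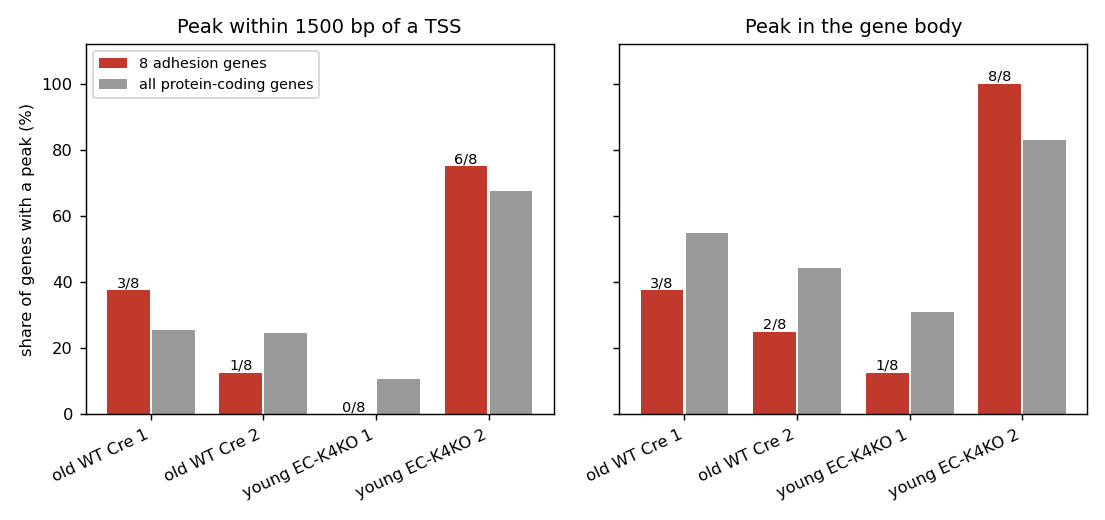
Share of genes (%) with a Pol II peak within 1500 bp of a TSS (left) and in the gene body (right), for the 8 adhesion genes (red, counts above the bars) and all protein-coding genes (grey) in each library. In both panels the red bar is tallest in young EC-K4KO replicate 2, with 6 and 8 of the 8 genes, and lowest in young EC-K4KO replicate 1, with 0 and 1.

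An uncalled promoter is not a measured 0. The lists hold only positions past the authors' q-value threshold of 0.01, and the lowest pileup called was 13, 8, 9 and 7 fragments in the 4 libraries, or 0.198, 0.291, 0.255 and 0.308 FPM. Pol II below those heights could not be seen in these files. Because no adhesion gene had a promoter peak in every library, its promoter pileup could not be tested between groups. The intervals below are exact Poisson 95% intervals, which cover counting error only. The file headers show that the peak caller kept all duplicates, so pileups and intervals may count PCR copies if any remained in its input, which was not tested.

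Of the selectins, Selp had 1 promoter peak, in young EC-K4KO replicate 2. It reached 14 fragments (0.617 FPM, 0.337 to 1.03) at a summit 564 bp downstream of the TSS, with a fold enrichment of 6.53 over the local background. Among genes with a promoter peak in that library it stood at the 20.7th percentile of pileup, in the lower part of the range. Sele, whose product appears on endothelium after cytokine stimulation, had no peak within 1500 bp of a TSS in any of the 4 libraries. Its nearest gene body peaks lay farther in, at 2525 bp in old WT Cre replicate 1 (0.396 FPM) and at 1915 and 4717 bp in young EC-K4KO replicate 2 (0.617 FPM each).

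Of the integrin ligands, Icam1 had 1 promoter peak, again in young EC-K4KO replicate 2, with 19 fragments (0.837 FPM, 0.504 to 1.31) and a fold enrichment of 4.34. Its summit lay 57 bp upstream of the nearest TSS, at coordinate 21015928, inside the stretch shown above. Its pileup was at the 49.4th percentile of promoters with a peak. Icam2, the constitutive endothelial relative of Icam1, had a pair of promoter peaks in the same library, 1408 bp downstream and 1354 bp upstream of the nearest TSS, each with 15 fragments (0.661 FPM, 0.370 to 1.09). Their fold enrichments were 3.50 and 4.33. Neither gene had a promoter peak in the other 3 libraries. Vcam1, which binds the integrin that pairs Itga4 with Itgb1, had no promoter peak in any library. All of its gene body signal was a pair of intronic peaks in young EC-K4KO replicate 2, 5108 and 9714 bp from the TSS, each at 0.440 FPM.

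Mcam had the most widely called promoter of the 8. Its tallest promoter pileup was 27 fragments in old WT Cre replicate 1 (0.411 FPM, 0.271 to 0.598), 15 in old WT Cre replicate 2 (0.546, 0.306 to 0.901) and 20 in young EC-K4KO replicate 2 (0.881, 0.538 to 1.36). No peak was called in young EC-K4KO replicate 1, so the groups overlapped in presence. The fold enrichments lay between 3.72 and 4.43, and the summits lay 155, 359 and 326 bp upstream of the nearest TSS. These 3 peaks merge into 1 region (chr9:44134132-44134459), in whose shared 155 bases no base is soft-masked as repeat and each of 6 sampled words of 24 bases occurs once in the genome. The summits lie outside those shared bases, where copies were not counted. The TSS of the annotated gene Gm10687 lies within 1500 bp of the same region, so its signal and that of Mcam cannot be told apart. Young EC-K4KO replicate 2 had a further peak 642 bp downstream of the TSS (0.749 FPM).

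The higher FPM of Mcam in young EC-K4KO replicate 2 depended on the scale. The ratio of young EC-K4KO replicate 2 to old WT Cre replicate 1 was 2.14 on the FPM scale. With the tallest peak taken out of the fragments of each library, it was 1.86. Promoter peaks of all genes were also taller in young EC-K4KO replicate 2, with a median of 0.837 FPM against 0.319, 0.473 and 0.397 in the other 3. Relative to the median promoter peak of its own library, the same ratio was 0.819, which turns the direction. Within their own libraries the Mcam peaks stood at the 83.9th, 67.8th and 55.2th percentile of promoter pileups.

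Alcam and Cd34 each had promoter peaks in old WT Cre replicate 1 and young EC-K4KO replicate 2. At Cd34 the summits lay 54 and 17 bp downstream of the TSS, with 21 fragments (0.319 FPM, 0.198 to 0.488) and 13 fragments (0.573, 0.305 to 0.979). Both peaks fell in the same region at the start of the gene (chr1:194938807-194939225), and their intervals overlapped. At Alcam the peak of young EC-K4KO replicate 2 sat 12 bp from a TSS with 28 fragments (1.23 FPM, 0.819 to 1.78) and a fold enrichment of 9.47, the tallest promoter peak among the 8 genes. In old WT Cre replicate 1 the Alcam peak was 1263 bp downstream (0.289 FPM, 0.174 to 0.451), where young EC-K4KO replicate 2 had a second, lower peak (0.396 FPM). Alcam stood at the 30.0th and 87.5th percentile of promoter pileups in those libraries, and Cd34 at the 47.9th and 15.9th.

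**Figure D2:**
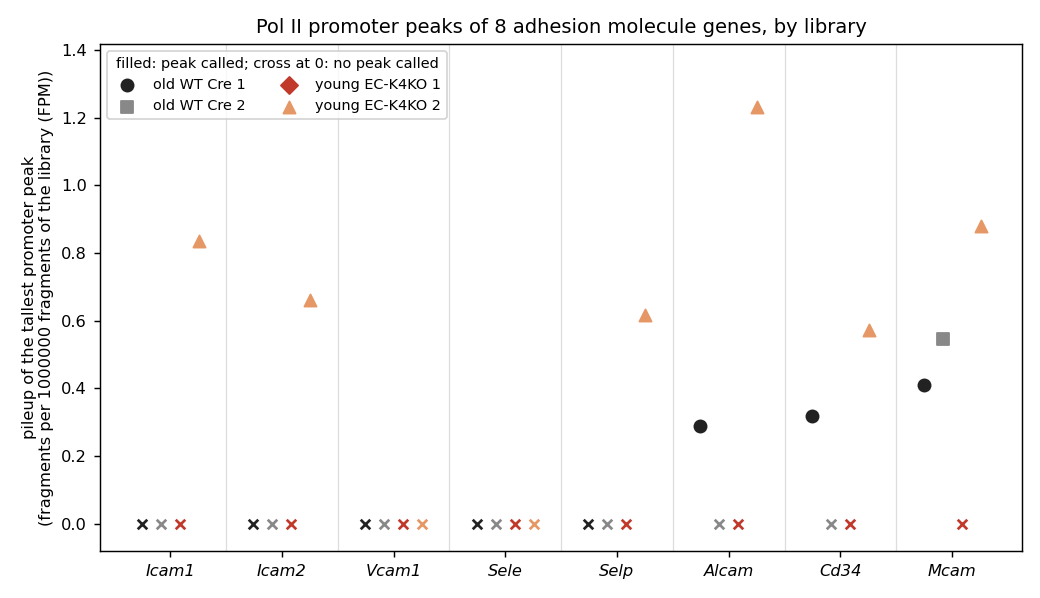
Pileup of the tallest promoter peak of each adhesion gene in each library, in FPM; each filled symbol is 1 library and a cross at 0 marks a library with no peak called. Every gene with a promoter peak has one in young EC-K4KO replicate 2 (0.573 to 1.23), Mcam is the gene with symbols from 3 libraries, and Vcam1 and Sele show crosses alone.

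In the gene bodies, 3 of the 8 genes had a peak in old WT Cre replicate 1 (Sele, Alcam and Cd34; 54.9% of all genes), 2 in old WT Cre replicate 2 (Selp and Alcam; 44.4%), 1 in young EC-K4KO replicate 1 (Alcam; 31%) and all 8 in young EC-K4KO replicate 2 (83%). In each of the first 3 libraries the share of the adhesion genes was below that of all protein-coding genes. Long genes offer more room for peaks, and the genes here span 8.259 kb (Mcam) to 205.079 kb (Alcam). Alcam had 5, 1, 1 and 10 body peaks in the 4 libraries, which is 0.244, 0.0488, 0.0488 and 0.488 per 10 kb. In young EC-K4KO replicate 2 the other genes had between 0.779 (Icam1) and 2.88 (Icam2) body peaks per 10 kb, and Selp had 7 peaks along its body (2.01 per 10 kb).

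Alcam was the only member with a gene body peak in all 4 libraries, as 19.7% of all genes had. It was at the same place each time, in an intron 171 kb downstream of the TSS (chr16:52280974-52281394), with summits within 8 bp of each other. Its pileup was 27, 26, 22 and 62 fragments, or 0.411, 0.947, 0.625 and 2.73 FPM. The values of the groups overlapped. The peak stood at the 82.4th, 97.1th, 92.8th and 99.7th percentile of all peaks of its library. Repeat sequence covered 100% of the region by soft-masking, and 0 of 5 words of 24 bases from its shared part occurred once in the genome, with a median of 3628 copies. Fragments from other copies of this repeat and from Alcam cannot be told apart.

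Within 50 kb, Icam1 had 0, 2, 1 and 18 peaks, Icam2 4, 4, 1 and 15, and Vcam1 4, 3, 0 and 9. Sele had 3, 0, 4 and 10, and Selp 0, 2, 2 and 15. Alcam had 7, 2, 2 and 14, Cd34 3, 1, 1 and 14, and Mcam 3, 3, 1 and 18. For each gene young EC-K4KO replicate 2 was highest, while young EC-K4KO replicate 1 lay at or below the higher old library for all genes but Sele. At least 1 peak was found within 50 kb of 6, 7, 7 and 8 of the genes, against 94.8%, 88.2%, 79.1% and 99.2% of all genes.

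For Sele both young EC-K4KO libraries exceeded both old WT Cre libraries, a mean difference of 5.5 peaks (p = 0.3333 by a 2-sided exact permutation test, below which a design of 2 against 2 libraries cannot go). The same held for 6.84% of all protein-coding genes, and no adhesion gene showed the opposite, as 0.041% of all genes did. For the other 7 genes the groups overlapped or met (at 2 peaks for Selp), with differences in means of 1 (Vcam1) to 8.5 (Icam1) peaks, all higher in young EC-K4KO. Without young EC-K4KO replicate 2 the difference at Sele was 2.5 peaks and those at Icam2, Vcam1, Alcam, Cd34 and Mcam turned negative, down to -3.5 at Vcam1. Counted per 10000 peaks of the library, the young EC-K4KO mean was higher by 0.583 at Sele and 0.347 at Selp, and was lower at Vcam1 by a difference of -0.441, each with the smallest p the exact permutation test can give (p = 0.3333). On that scale the values were 0.380, 0, 1.12 and 0.424 for Sele, 0, 0.504, 0.561 and 0.637 for Selp, and 0.507, 0.756, 0 and 0.382 for Vcam1. Both young EC-K4KO libraries exceeded both old ones at 2 of the 8 genes (13.7% of all genes) and the reverse held at 1 (16.9%). The separation of the counts at Sele was lost at q of at most 1e-05 and within 20 kb (2.5 peaks each), within 100 kb (6.5 peaks) and with lists of equal length (0.5 peaks). The windows of Sele and Selp overlap, since the genes are neighbours on chromosome 1, so their counts share peaks.

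Taken over all 8 windows, which cover 1.08 Mb, 24, 17, 11 and 111 distinct peaks were found, or 22.2, 15.7, 10.2 and 102.7 per Mb. The lists as a whole held 29.7, 15.0, 13.4 and 88.8 peaks per Mb of effective genome. Windows around the adhesion genes were thus below their list in old WT Cre replicate 1 and young EC-K4KO replicate 1 and above it in the other pair, once more without a split by group.

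**Figure D3:**
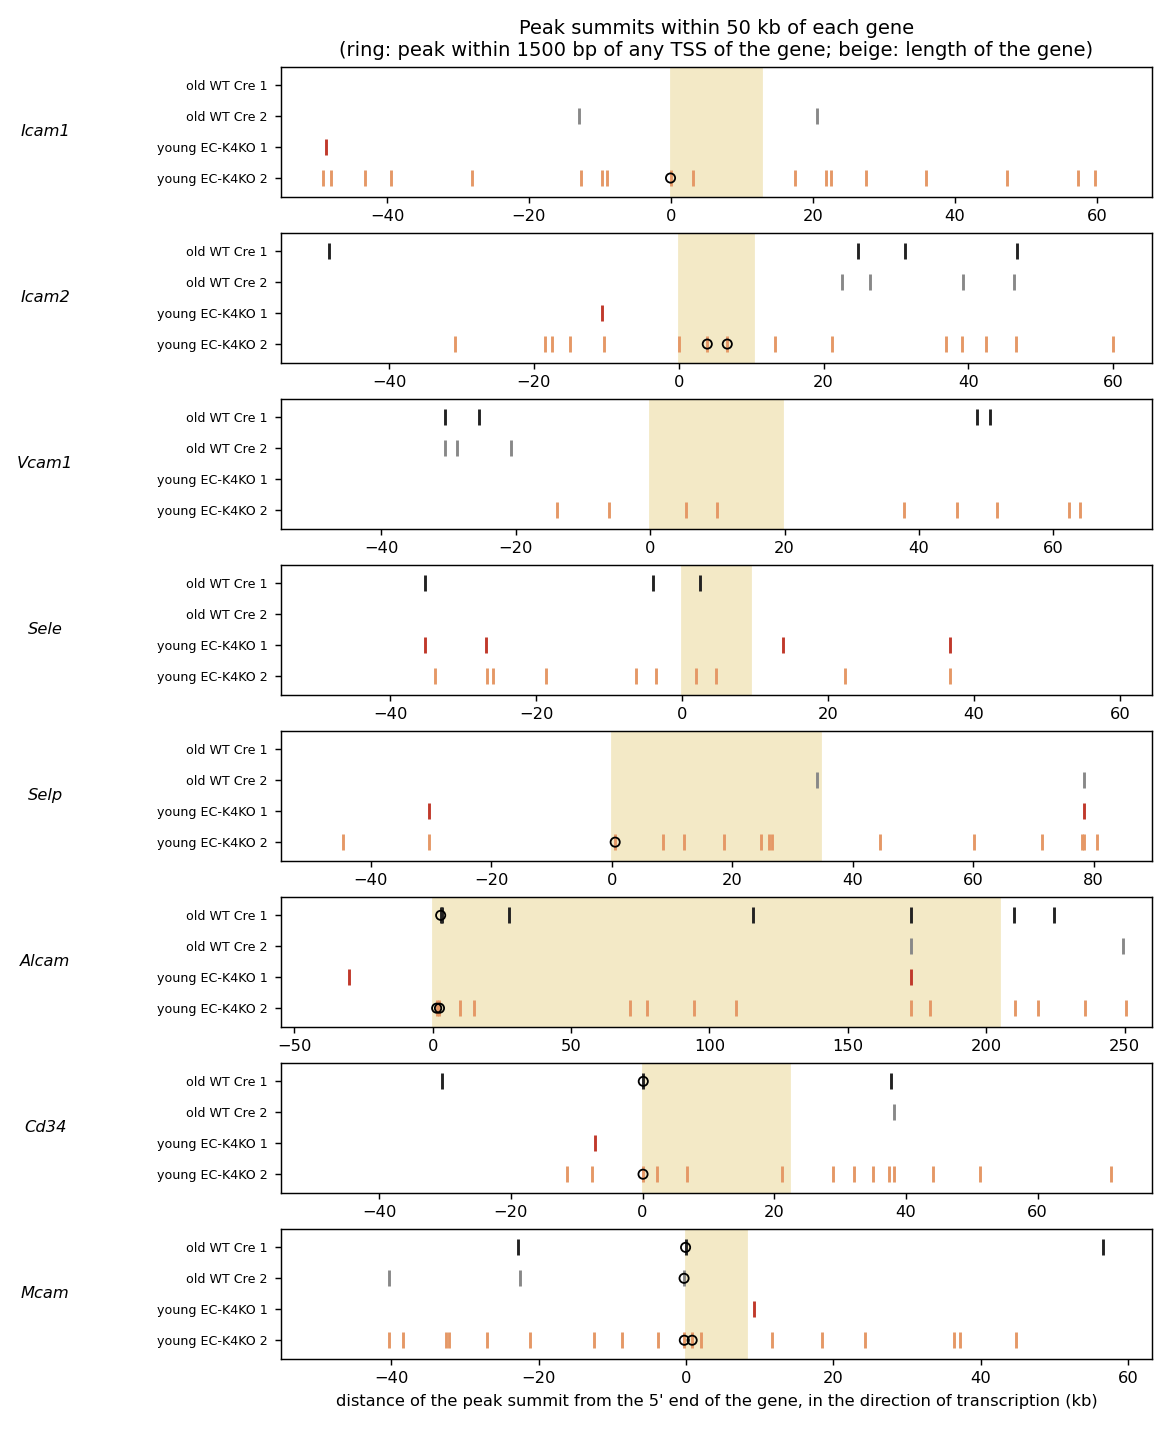
Summits of peaks within 50 kb of each adhesion gene, by distance from the 5' end of the gene in the direction of transcription (kb), with 1 line per library; rings mark peaks within 1500 bp of any TSS of the gene and beige its length. Young EC-K4KO replicate 2 carries the most marks at every gene (9 to 18), 1 mark in the far part of Alcam is shared by all libraries, and Vcam1 has none in young EC-K4KO replicate 1.

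Overlapping peaks of the libraries merged into 143 regions in these windows, of which 130 were found in 1 library (87.3% of all regions genome-wide were), 8 in 2 libraries (10%), 4 in 3 (1.97%) and 1 in all of them (0.69%). Young EC-K4KO replicate 2 alone gave 100 of the 143 (59.8% genome-wide). Of the regions in 3 libraries, only the Mcam promoter belonged to an adhesion gene. The others lay in an exon of F5, which encodes coagulation factor V, in the Selp window (chr1:164193541-164194057), at the TSS of the noncoding A330023F24Rik and Gm16897 in the Cd34 window (chr1:194976263-194977062), and in an intron of Scn4a, a sodium channel gene, in the Icam2 window (chr11:106341286-106341759). The peak at A330023F24Rik reached 0.396 and 0.437 FPM in old WT Cre and 1.94 FPM in young EC-K4KO replicate 2, above the Cd34 promoter in both libraries that had the latter.

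Regions that split by group were 2 in each direction, 1.36% of all regions being in both old WT Cre libraries alone and 1.62% in both young EC-K4KO libraries alone. In the old libraries they were an intergenic stretch 30.5 kb upstream of Vcam1 (0.243 and 0.692 FPM) and a stretch at the TSS of Rnf26 in the Mcam window (0.319 and 0.510 FPM). The Vcam1 stretch is 99.1% soft-masked repeat. No base of the Rnf26 stretch is soft-masked. Of 6 sampled words of 24 bases from its shared part, 2 occurred once in the genome, with a median of 2 copies. Young EC-K4KO replicate 2 had a separate peak at Rnf26 that did not overlap that stretch. In the young libraries both flanked Sele, at 26.8 kb upstream (chr1:164021301-164021595; 0.369 and 0.308 FPM) and between Sele and Selp (chr1:164084814-164085045; 0.454 and 0.308 FPM). In young EC-K4KO replicate 2 both of these Sele regions had 7 fragments, the lowest pileup called in that library.

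Other genes share the windows, and peaks at their TSS do not belong to the adhesion genes. In the Icam1 window such peaks lay at Mrpl4, which encodes a mitochondrial ribosomal protein, and at Gm26592 in both old WT Cre replicate 2 and young EC-K4KO replicate 2, and at S1pr2, Fdx1l, Icam5 and a few noncoding genes in young EC-K4KO replicate 2. In the Icam2 window they lay at Prr29 and Scn4a in old WT Cre replicate 2 and young EC-K4KO replicate 2, and in the Mcam window at Mfrp and C1qtnf5 in young EC-K4KO replicate 2 besides Rnf26. In the Vcam1 window the only ones were at Gm26544 in old WT Cre replicate 2 and Gm26344 in young EC-K4KO replicate 2.

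The surroundings of the 8 genes differed in their local background, which the deposited columns give as the pileup plus 1 over the fold enrichment, minus 1. When a locus is no richer in fragments than the genome as a whole, this background equals a floor that is the same for all such peaks of a library. Around Icam1, Icam2 and Mcam, 68 of 70 peaks stood on a background more than 1% above that floor. Young EC-K4KO replicate 2 gave 51 of these 70, all above the floor, and the other libraries 17 of 19. Around the other 5 genes it was 26 of 96, counted per window, with 22 of 62 in young EC-K4KO replicate 2 and 4 of 34 elsewhere, and over all peaks of the 4 lists the share was 32.4%, 32.7%, 49.4% and 61.5%. These 3 loci were set apart after the values were seen, so the contrast carries no test. In young EC-K4KO replicate 2 the median background was 2.94 times the floor at Icam1, 2.39 at Icam2 and 2.39 at Mcam, against 1.40 over all protein-coding genes. It was 1.13 at Sele, 1.11 at Selp and 1.00 at Vcam1, Alcam and Cd34. In old WT Cre replicate 2 the values were 1.80, 1.55 and 1.55 at Icam1, Icam2 and Mcam, and between 1.00 and 1.03 at Vcam1, Selp, Alcam and Cd34, with no peak at Sele. The Icam1 window held the TSS of 8 protein-coding genes, that of Mcam 6 and that of Icam2 3, whereas the other 5 windows held 1 or 2 each. The part of gene density in the background was not tested.

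**Figure D4:**
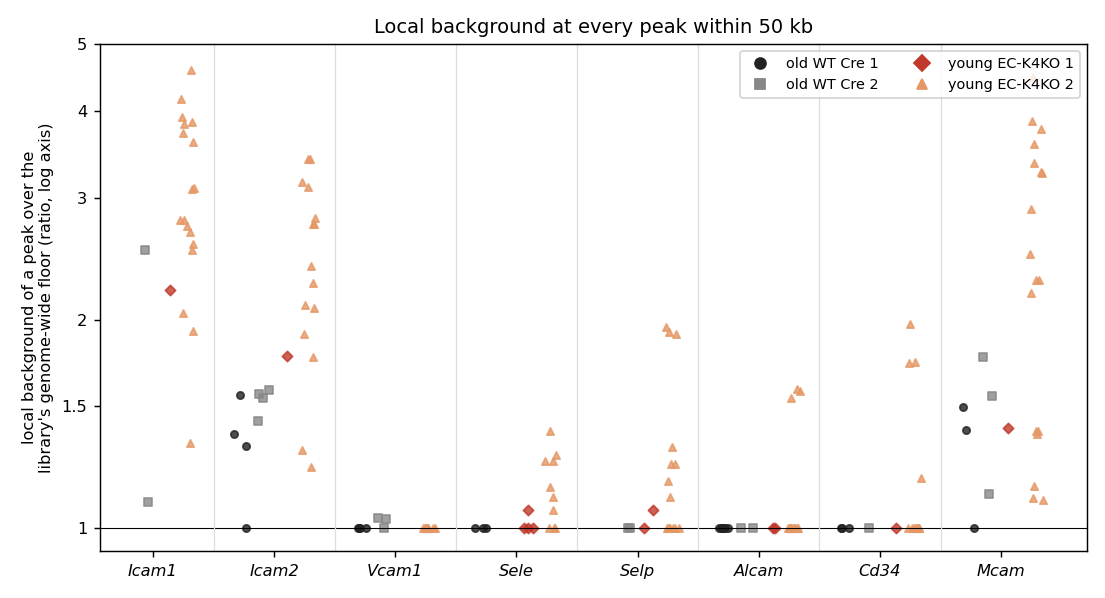
Local background of every peak within 50 kb of each adhesion gene, as a ratio to the floor of its library (log axis; 1 is the floor), by library. Peaks around Icam1, Icam2 and Mcam lie above the line in all libraries that have them but for 1 peak each at Icam2 and Mcam, and those around Vcam1, Alcam and Cd34 mostly lie on it.

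The partners and regulators of the adhesion genes were followed as lists, by promoter peaks in the 4 libraries, beside 25.6%, 24.5%, 10.6% and 67.5% of all protein-coding genes, and no list was tested against that background. A promoter peak in both old libraries and neither young one was found at 0.784% of all genes, and the reverse at 3.12%. Of 11 leukocyte ligands and receptors, 3, 3, 3 and 6 had one. Itga4, the integrin chain that binds Vcam1, had one in all 4 libraries (0.304, 0.473, 0.426 and 1.54 FPM), and Cd6, the receptor for Alcam, in both old WT Cre libraries and neither young one. Of 14 other endothelial adhesion and transmigration genes it was 4, 5, 5 and 10, with Jam2, a junctional adhesion molecule, Cd47 and Cav1 in all 4 libraries and F11r in both young EC-K4KO libraries alone. Jam2 stood at 0.319, 0.510, 0.454 and 1.01 FPM.

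Of 8 endothelial chemokine genes, 1, 1, 1 and 6 had a promoter peak. Of 16 genes of NF-kB and its TNF and IL-1 inputs, 4, 4, 2 and 15 had one, with Nfkb2, an NF-kB subunit gene, and Tnfaip3, which encodes the feedback inhibitor A20, in both young EC-K4KO libraries and neither old one. Of 10 genes for the ERM proteins and other parts of the docking structure under bound leukocytes it was 4, 6, 1 and 10. In every list the count was highest in young EC-K4KO replicate 2, as for all genes.

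Because the sort should leave ECs alone, markers of other cells were counted the same way, beside 25.6%, 24.5%, 10.6% and 67.5% of all protein-coding genes. A promoter peak in both young libraries and neither old one was found at 3.12% of all genes. Of 8 leukocyte and microglial markers, 2, 0, 0 and 4 had a promoter peak in the 4 libraries, with Cx3cr1 in old WT Cre replicate 1 and young EC-K4KO replicate 2, Tmem119 in old WT Cre replicate 1, and Aif1, P2ry12 and Csf1r in young EC-K4KO replicate 2. Ptprc, Itgam and Cd3e had none in any library. It was 2, 0, 1 and 4 of 6 for mural cells, with Acta2 in 3 libraries, Myh11 in 2, Cspg4 and Kcnj8 in 1 and Pdgfrb and Rgs5 in none, 2, 1, 0 and 3 of 4 for astrocytes, 0, 1, 0 and 3 of 4 for neurons, and 0, 0, 1 and 3 of 4 for oligodendrocytes, where Olig2 had one in both young EC-K4KO libraries and neither old one. All of these lists had their highest count in young EC-K4KO replicate 2, the library that also holds most of the adhesion gene peaks. Their part in the adhesion gene peaks was not tested.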

How the data were processed

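After trimming, the authors aligned reads to mm10 (Bowtie2), removed duplicates and called peaks in each library (MACS2, no control). The file headers show that the caller itself kept all duplicates, and single pileups of up to 15.3% of a library's fragments remain in the lists. The deposited peak tables give for each peak its pileup (a coverage signal in fragments), its fold enrichment (a ratio to the local background) and, from the authors, −log10 values of its p-value and its q-value. None is normalized between libraries, and the file headers give the fragments counted and the caller's version, 2.2.7.1. Narrow peak and summit files repeat these values and were not used.

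Peaks were matched by at least 1 bp to TSS windows and gene bodies of GENCODE M21 basic with Python 3.11.15, pandas 2.3.3, numpy 2.4.6 and scipy 1.17.1. Samtools 1.23.1 read the sequences. The matching recovered 200 of 200 planted peaks in simulated data. Groups were compared by exact permutation of libraries. The genes named are the 8 members, genes with a peak at a TSS in their windows, and listed genes with promoter peaks in all 4 libraries or in 1 group alone, except 1 neighbouring gene that is not reported here. Cell type markers and genes set beside these were named as well, some after their values were seen. The members and lists were chosen with earlier results of these data known. A planned test of promoter pileup, and a search for genes of like pattern, needed a member with a peak in every library and could not be made. Alternatives were q of at most 1e-05, fold enrichment of at least 4, lists of equal length (the 35638 peaks of lowest q-value), other windows, peaks per 10000, a replicate block and leaving out each library. Alternative scales for the Mcam pileup were added after seeing the data.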

Additional observations from a re-analysis of the deposited data

How the results depend on the processing

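Under the alternatives, 65 values of the counts moved by at most 1.5 times and 27 moved further. A fall from 3 genes to 2 is within 1.5 times, and counts of 0 cannot fall. Lists of equal length leave young EC-K4KO replicate 1 unchanged, so this tally is no measure of robustness. Of the values for single genes 13 turned their direction and 77 did not, of which 2 went to 0 (Icam1 without young EC-K4KO replicate 2 and Selp with lists of equal length). At q of at most 1e-05, the adhesion genes with a promoter peak fell to 0 in old WT Cre replicate 2 and in both old libraries, those with a gene body peak to 1 in old WT Cre replicate 2, and the peaks within 50 kb to 14, 9, 6 and 68 in the 4 libraries. With lists of equal length, young EC-K4KO replicate 2 kept 1 gene with a promoter peak, 2 with a gene body peak and 14 peaks within 50 kb, and old WT Cre replicate 1 kept 11 such peaks. The latter had 10 at a fold enrichment of at least 4. Within 20 kb there were 13, 8, 5 and 69 peaks, and within 100 kb 47, 31, 19 and 184, since the window is smaller or larger. Leaving out 1 library, the other library of old WT Cre gave 1 to 3 genes with a promoter peak, 2 to 3 with a gene body peak and 17 to 24 peaks within 50 kb, and that of young EC-K4KO 0 to 6, 1 to 8 and 11 to 111. The highest values of young EC-K4KO were those without replicate 1 and the lowest those without replicate 2.

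The direction of the young EC-K4KO minus old WT Cre difference in peaks within 50 kb turned with lists of equal length at Icam2 (-2), Vcam1 (-2) and Mcam (-0.5), and per 10000 peaks at Icam2 (-0.299), Vcam1 (-0.441), Alcam (-0.118) and Mcam (-0.046). Leaving out each library in turn, it ranged from -3 to 11 at Icam2, -3.5 to 5.5 at Vcam1, -2.5 to 9.5 at Alcam, -1 to 12 at Cd34 and -2 to 15 at Mcam, and the negative ends were those without young EC-K4KO replicate 2. Leaving out any other library it stayed positive at all 8 genes, between 0.5 and 17. Why these turned was not tested. The Mcam promoter ratio between young EC-K4KO replicate 2 and old WT Cre replicate 1 turned from 2.14 to 0.819 on the median promoter scale. It kept its direction, at 1.86, with the tallest peak taken out of the fragments. With the replicate number as a block, the difference at Sele was again 5.5 peaks (exact sign flip test, p = 0.5, the smallest that 2 pairs allow), and neither fit can reach 0.05. The separation of the groups at Sele, p = 0.3333 by exact permutation, was lost at q of at most 1e-05 (2.5 peaks, p = 0.667), with lists of equal length (0.5, p = 1), within 20 kb (2.5, p = 0.667) and within 100 kb (6.5, p = 1), and kept at a fold enrichment of at least 4 (4.5 peaks) and per 10000 peaks (0.583). The labels give these numbers no shared origin. Depth limits what a missing peak means, since pileups under 7 to 13 fragments were not called.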
